A study of Mus musculus with 6 samples.

Results

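A mesenchymal set of 6 miRNA loci and 2 genes was described in mouse Achilles tendon: Mir199a-1, Mir199a-2, Mir199b, Mir214, Mir21a and Mir22 among 2262 features of the small RNA-seq table, and Dnm3os and Twist1 among 53726 features of the RNA-seq table. These 8 members were chosen by name, and all of them were in the tables and above the minimum mean count in every comparison. The study asked what loss of Dicer does to tendon, and its Achilles tendons were taken at 4 weeks of age. The Control carried Dicer f/f without Cre, the ScxHt carried the ScxCre/+ knock-in with Dicer +/+, and the Dicer cKO carried the ScxCre/+ knock-in with Dicer f/f. Cre stands under the endogenous Scx promoter, which is active in tendon and ligament cells, and the knock-in takes the place of 1 Scx allele, so that ScxHt and Dicer cKO both had 1 working Scx allele. Each genotype had 1 library per assay, 6 libraries in all, so no test between genotypes was possible. Every interval below is an exact 95% counting interval, which treats reads as independent and does not cover differences between mice.

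Dicer cuts hairpin precursors into mature miRNAs, which pair through their seed with sites in 3' UTRs and lower the stability and translation of those mRNAs. In mesenchymal tissues, the basic helix-loop-helix factor Twist1 is known to drive the long noncoding RNA Dnm3os, which is the precursor transcript of miR-199a-2 and miR-214. miR-199 and miR-214 are typical of mesenchymal cells and fibroblasts. miR-21 is abundant in fibroblasts and is known for its part in fibrosis, and miR-22 is widely expressed and is known from cardiac and skeletal muscle.

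The mature sequences show which loci can be told apart by their reads. They are given 5′ to 3′ from RefSeq on GRCm38.p6, where all 6 loci were matched, with the seed, bases 2 to 8, in capitals.
miR-199a-5p, from Mir199a-1 and Mir199a-2: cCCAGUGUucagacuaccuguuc
miR-199a-3p, from the same loci, and miR-199b-3p: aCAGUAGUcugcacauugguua
miR-214-5p: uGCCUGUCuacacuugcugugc
miR-214-3p: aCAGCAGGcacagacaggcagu
miR-21a-5p: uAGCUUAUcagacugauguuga
miR-21a-3p: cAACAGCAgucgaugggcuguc
miR-22-5p: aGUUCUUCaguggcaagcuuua
miR-22-3p: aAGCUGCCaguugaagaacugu
The stretch of the Mir199b hairpin that aligns with miR-199a-5p differs from it by 1 substitution, C10U, counted from 1 at the 5′ end, and is shown with that base in capitals.
Mir199b, 5′ arm: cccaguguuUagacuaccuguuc
The 5 seeds used below were those of miR-199a-5p, miR-199a-3p, miR-214-3p, miR-21a-5p and miR-22-3p, and no 2 of these 5 were alike. The substitution in the 5′ arm of Mir199b lies outside bases 2 to 8, so that stretch has the seed of miR-199a-5p. Among the 1679 mature names of the RefSeq table, miR-22-3p shared its seed with 0 others, miR-214-3p shared its seed with miR-761, and miR-21a-5p shared its seed with miR-21c.

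In GENCODE vM21 on GRCm38, Mir199a-2 (chr1:162217814-162217923, plus strand) and Mir214 (chr1:162223368-162223477, plus strand) lie within exons of Dnm3os (chr1:162217623-162225550, plus strand), which is itself antisense to Dnm3, a dynamin gene on the minus strand. Mir199a-2 starts 191 bases and Mir214 starts 5745 bases after the start of Dnm3os, with 5444 bases between the hairpins. Only 2 of the 6 annotated Dnm3os transcripts hold both hairpins whole in an exon. Mir199a-1 (chr9:21496495-21496564, minus strand) lies in an intron of Dnm2 on the opposite strand, and Mir199b (chr2:32318460-32318569, plus strand) lies in an intron of Dnm1 on the opposite strand. Mir21a (chr11:86584067-86584158, minus strand) lies in an exon of Vmp1 on the same strand. Mir22 (chr11:75463716-75463810, plus strand) lies in an exon of its host Mir22hg and in an annotated exon of Tlcd2, both on the same strand. Twist1 is a protein-coding gene at chr12:33957671-33959829, plus strand.

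**Figure D1:**
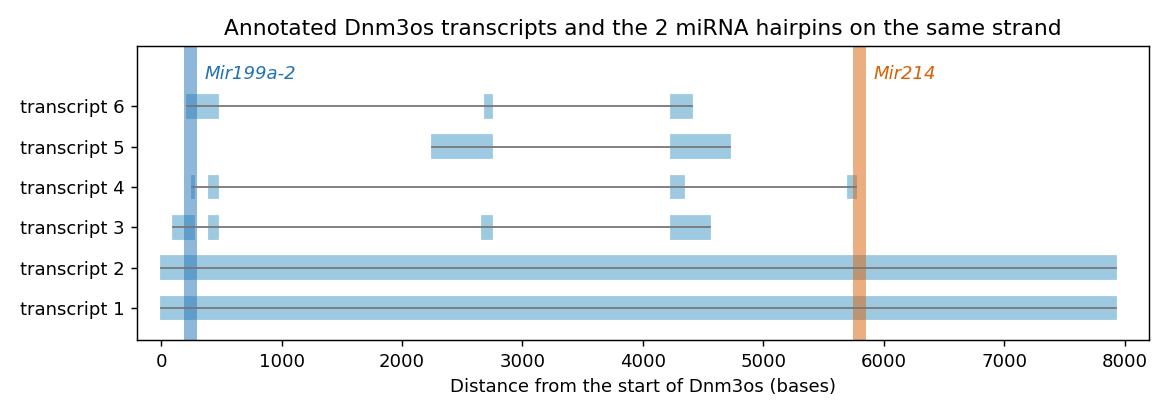
The 6 annotated transcripts of Dnm3os (exons as boxes, introns as lines) against the distance from the start of the gene in bases, with the Mir199a-2 and Mir214 hairpins as shaded bars. Transcripts 1 and 2 are unspliced and hold both hairpins, which are 5444 bases apart.

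Small RNA-seq counts summed to 10986541 (Control), 8437993 (ScxHt) and 8435829 (Dicer cKO), and RNA-seq counts to 14959399 to 16244232. The targeted gene, Dicer1, had counts of 1919 (Control), 2025 (ScxHt) and 1621 (Dicer cKO), and a count over the whole gene does not isolate its floxed part. Ratios were taken between scaled counts, and a gene was called lower below a ratio of 0.60 and higher above its reciprocal, rounded to 2 decimals, as a size and not as a test. Of the 13404 genes compared for Dicer cKO/Control, 3.87% were above the upper threshold and 4.19% below the lower. For ScxHt/Control these shares were 3.03% and 4.71%, and between the Cre genotypes 7.68% and 5.68%. Cell type markers were present in all libraries, with no marker at 0, and several lists moved between the libraries. For Dicer cKO/Control, 7 of 11 tendon fibroblast markers were lower, while 9 of 15 skeletal muscle, 5 of 5 erythroid and 1 of 6 smooth muscle and pericyte markers were higher, 1 of 10 macrophage and 1 of 8 adipocyte markers were lower, and 0 of 10 endothelial markers passed a threshold. Of the 5 Schwann cell markers above the minimum in both comparisons with the Control, 4 were higher with Dicer cKO and 0 with ScxHt. For ScxHt/Control, 9 of 10 macrophage and 3 of 15 muscle markers were higher, 7 of 15 muscle markers were lower, and the count was 0 in the other 6 marker lists. The 10 endothelial markers were nevertheless all below 1 for ScxHt/Control, at 0.601 to 0.792 with a median of 0.700. The smooth muscle and pericyte markers had a median ratio of 0.793 in that comparison, with a range of 0.603 to 1.07. The summed RPKM of the tendon fibroblast markers was 19752 (Control), 18069 (ScxHt) and 11321 (Dicer cKO), and that of the muscle markers was 6539, 4654 and 11754 in the same order. The 6 loci of muscle miRNAs took 6.34% (Control), 4.38% (ScxHt) and 11.9% (Dicer cKO) of small RNA counts, and 4 of them were higher for Dicer cKO/Control and 1 lower for ScxHt/Control. The 4 were Mir1a-1 with Mir1a-2 and Mir133a-1 with Mir133a-2, and the counts within each pair were nearly identical. They are therefore not 4 independent measurements, and the shares may hold the same reads more than once. The part of these shifts in the results on the members was not tested. In bulk tissue, fewer cells of a type and less RNA per cell cannot be told apart.

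The miR-199 loci were among the most abundant small RNAs of the tendon in every genotype. Mir199a-2 had counts of 559555 (Control), 362563 (ScxHt) and 361918 (Dicer cKO). These were 5.09% (5.08 to 5.11), 4.30% (4.28 to 4.31) and 4.29% (4.28 to 4.30) of the library, at ranks 5, 8 and 7 among all features. Mir199a-1 had 558322, 361550 and 360910 counts and Mir199b 546684, 348566 and 348452 counts in the same order. The Control library was the highest at all 3 loci, and the ScxHt and Dicer cKO libraries lay close together below it. The identical 3′ arm gives reads that fit all 3 loci, and the counts of the 3 loci lay within 3.86% of each other in each library, so the loci were not treated as 3 independent measurements. How reads that fit several loci were counted is not given in the sources used here, and the near-identical counts are the only sign that such reads stand at each locus. Summed, the 3 loci took 15.2% of the Control and 12.7% of the ScxHt and of the Dicer cKO library, sums that may hold the same reads more than once. The authors' RPKM divides by the length of the hairpin and so was 1.57 times higher for Mir199a-1, annotated with 70 bases, than for Mir199a-2, annotated with 110, at nearly the same count.

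After scaling by DESeq2 size factors on the 2 libraries compared, the ratio Dicer cKO/Control of Mir199a-2 was 0.741 (0.738 to 0.744) and its ratio ScxHt/Control was 0.730 (0.727 to 0.733). Mir199b had ratios of 0.731 (0.727 to 0.734) and 0.718 (0.715 to 0.721). Between the 2 genotypes with ScxCre, which differ in Dicer, the ratio Dicer cKO/ScxHt was 0.998 (0.994 to 1.0) for Mir199a-2 and 1.0 (0.995 to 1.0) for Mir199b. The Control was thus above both Cre libraries by far more than counting error, and the Dicer cKO library differed from the ScxHt library by at most 1.03-fold under any scaling tried, above or below 1 according to the scaling. The count of Mir199a-2 exceeded that of Mir199b by 12871 (Control), 13997 (ScxHt) and 13466 (Dicer cKO), which was 2.30%, 3.86% and 3.72% of the Mir199a-2 count. This net difference had scaled ratios of 1.20 for Dicer cKO/Control and 1.23 for ScxHt/Control, where the loci as a whole had ratios below 1. Most of it was also found between Mir199a-1 and Mir199b, at 11638 (Control), 12984 (ScxHt) and 12458 (Dicer cKO) counts and scaled ratios of 1.23 and 1.26. Mir199a-2 exceeded Mir199a-1 by only 1233, 1013 and 1008 counts in the same order of libraries, with scaled ratios of 0.937 and 0.926.

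Mir214, encoded on the same Dnm3os transcripts as Mir199a-2, had far lower counts than Mir199a-2 and did not share the pattern of those counts. The counts at Mir199a-2 may hold reads of Mir199a-1 and Mir199b, so the output of the Dnm3os locus itself was not measured. It had counts of 1948 (Control), 2071 (ScxHt) and 1644 (Dicer cKO), which was 0.0177% (0.0170 to 0.0185), 0.0245% (0.0235 to 0.0256) and 0.0195% (0.0186 to 0.0205) of the library, at ranks 108, 99 and 109. The ScxHt library was thus the highest. The ScxHt/Control ratio was 1.20 (1.13 to 1.27) and the Dicer cKO/ScxHt ratio 0.794 (0.744 to 0.847). The Dicer cKO/Control ratio was 0.967 (0.905 to 1.03), within counting error of 1, and it was 1.0 with TMM factors and 1.10 with total counts. Mature miRNAs of the set are 22 or 23 bases long. Counts of loci within a library were therefore set side by side without a correction for length. Such ratios are of read counts and not of molecules, as how evenly the libraries capture different miRNAs was not measured. The count of Mir199a-2 was 287 times (275 to 300.5) that of Mir214 in the Control. It was 175 times as high (168 to 183) with ScxHt and 220.1 times as high (209.7 to 231) with Dicer cKO. This ratio within a library needs no scaling between libraries, and its 3 intervals did not overlap. Against the Control, it was 0.609 times as high with ScxHt and 0.766 times as high with Dicer cKO.

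Dnm3os, the host transcript, had RNA-seq counts of 1923 (Control), 2160 (ScxHt) and 1700 (Dicer cKO), or 14.9, 17.3 and 14.3 on the RPKM scale. The ScxHt library was the highest and the other two were close together. Its ratio ScxHt/Control was 1.08 (1.01 to 1.14). Against the ScxHt and the Control library, the Dicer cKO library was at 0.867 (0.813 to 0.925) and 0.918 (0.859 to 0.980). Side by side, ScxHt/Control ratios were 1.08 for the host, 1.20 for Mir214 and 0.730 for Mir199a-2, each from its own assay and scaling. For Dicer cKO/Control they were 0.918, 0.967 and 0.741. The ScxHt library was the highest for Dnm3os and Mir214, while Mir199a-2, whose reads are shared with Mir199a-1 and Mir199b, was highest in the Control.

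**Figure D2:**
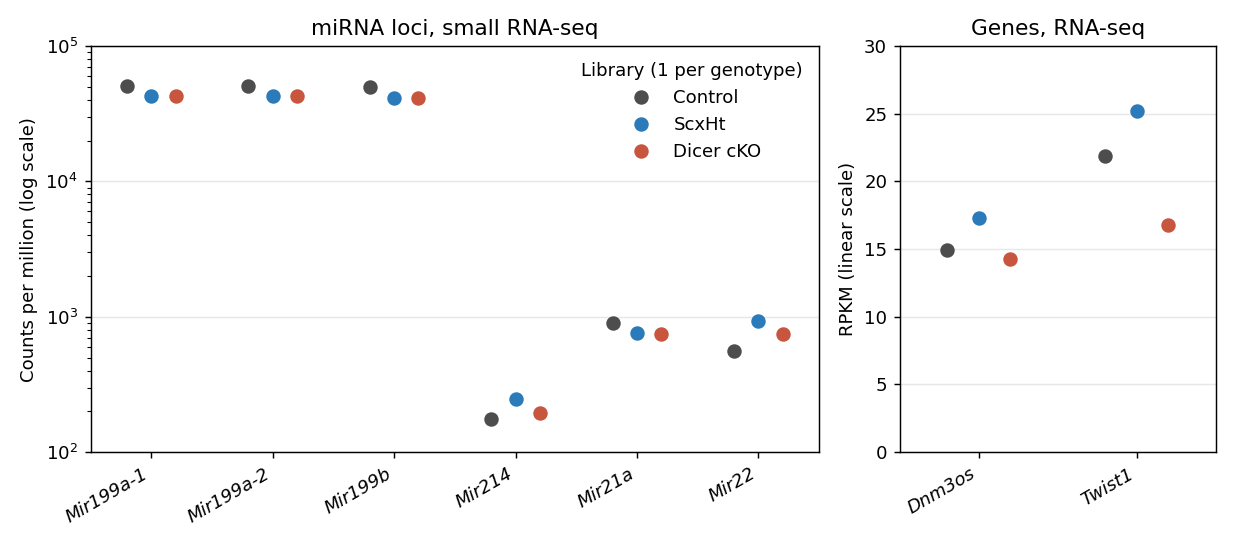
Level of each member in the 3 libraries: CPM of small RNA-seq for the miRNA loci on a log scale (left) and RPKM of RNA-seq for Dnm3os and Twist1 on a linear scale (right), with 1 point per library and no replicates. The miR-199 loci lie between 41306 and 50931 CPM and the other loci below 1000, and Twist1 is lowest in the Dicer cKO library at 16.8 RPKM.

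Mir21a followed the miR-199 loci. It had counts of 9908 (Control), 6384 (ScxHt) and 6275 (Dicer cKO), or 902, 757 and 744 CPM, the count scaled to the library total. The Control was the highest, and the other libraries did not differ beyond counting error. Against the Control, the ratio was 0.726 (0.703 to 0.749) for each of the Cre genotypes. The ratio Dicer cKO/ScxHt was 0.983 (0.949 to 1.02), and above 1 when features over 1% of a library were left out of the totals. Within a library, the count of Mir199a-2 was 56.5 times (55.4 to 57.6) that of Mir21a in the Control, 56.8 times (55.4 to 58.2) with ScxHt and 57.7 times (56.3 to 59.1) with Dicer cKO. The intervals overlapped, so the 2 loci kept their proportion within counting error across the genotypes. The related loci Mir21b and Mir21c had 2 and 0 counts in the Control library and 0 counts in the other libraries.

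Mir22 went the other way. It had counts of 6168 (Control), 7786 (ScxHt) and 6253 (Dicer cKO), or 561, 923 and 741 CPM. The ScxHt library was the highest and the Control the lowest. Against the Control, the ratio was 1.42 (1.38 to 1.47) with ScxHt and 1.16 (1.12 to 1.20) with Dicer cKO. Set against each other, Dicer cKO/ScxHt was 0.803 (0.777 to 0.830). The count of Mir22 was 0.623 times (0.603 to 0.643) that of Mir21a in the Control, 1.22 times (1.18 to 1.26) with ScxHt and 0.996 times (0.962 to 1.03) with Dicer cKO. Relative to the Control, this proportion was 1.96 times as high in the ScxHt library. The host transcript Mir22hg, with 564 RNA-seq counts in the Control, was at 1.02 (0.910 to 1.15) of it with ScxHt and at 1.19 (1.07 to 1.34) with Dicer cKO. The order of the ScxHt and Dicer cKO libraries differed between the locus and the counts given for its host. Reads of Mir22hg may not be fully separate from those of Tlcd2, which has an annotated exon at Mir22 on the same strand.

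Of the 6 miRNA loci, 0 had a ratio below 0.60 or above its reciprocal for Dicer cKO/Control, where 12.6% of the small RNA features above a mean scaled count of 15 did. The count was again 0 of 6 for ScxHt/Control, beside 9.94% of all features, and 0 of 6 for Dicer cKO/ScxHt, beside 13.4%. The median log2 ratio of the 6 loci was -0.43 for Dicer cKO/Control and -0.45 for ScxHt/Control, beside -0.02 for all features in each. As 3 of the 6 share reads, the median was also taken over Mir214, Mir21a and Mir22 alone, where it was -0.05 and 0.26. Among all features, 13.8% had a lower Dicer cKO/Control ratio than Mir21a, 15.9% than Mir199a-1, 46.4% than Mir214 and 66.2% than Mir22. For ScxHt/Control, 91.9% had a lower ratio than Mir22 and 75.9% than Mir214. The miR-199 loci and Mir21a therefore lay in the lower part of the distribution but within its body, and Mir22 lay in its upper part for ScxHt/Control. The ratios against the Control share that library and are not independent of each other.

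**Figure D3:**
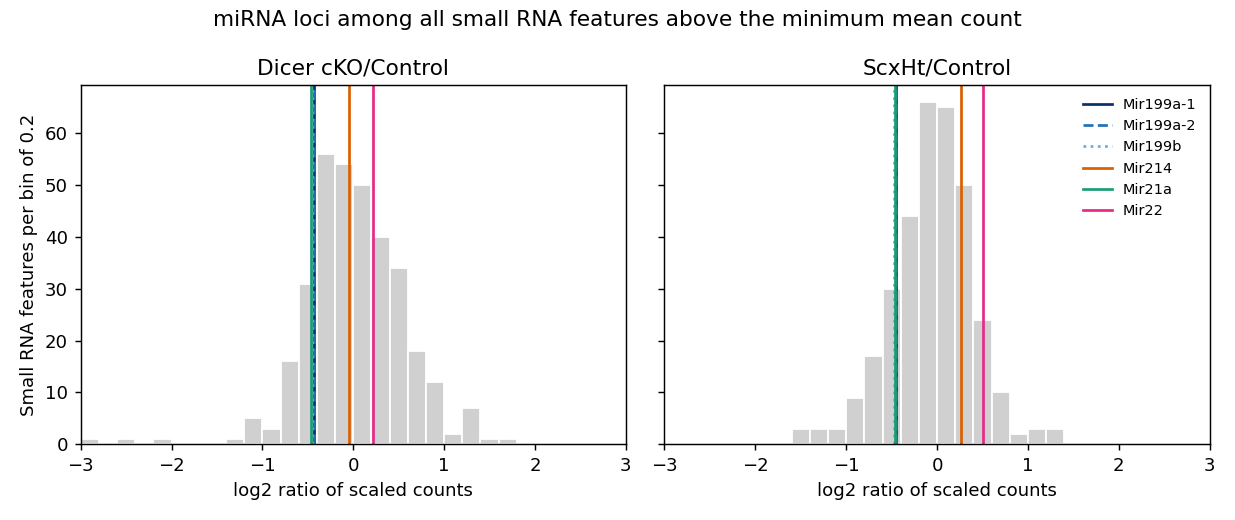
Number of small RNA features per bin of 0.2 in the log2 ratio of scaled counts (grey), for 334 features in Dicer cKO/Control and 332 in ScxHt/Control, with the 6 miRNA loci as vertical lines and features beyond 3 placed in the outermost bins. The miR-199 loci and Mir21a stand together near -0.45 in both panels, and Mir214 and Mir22 stand to their right.

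**Figure D4:**
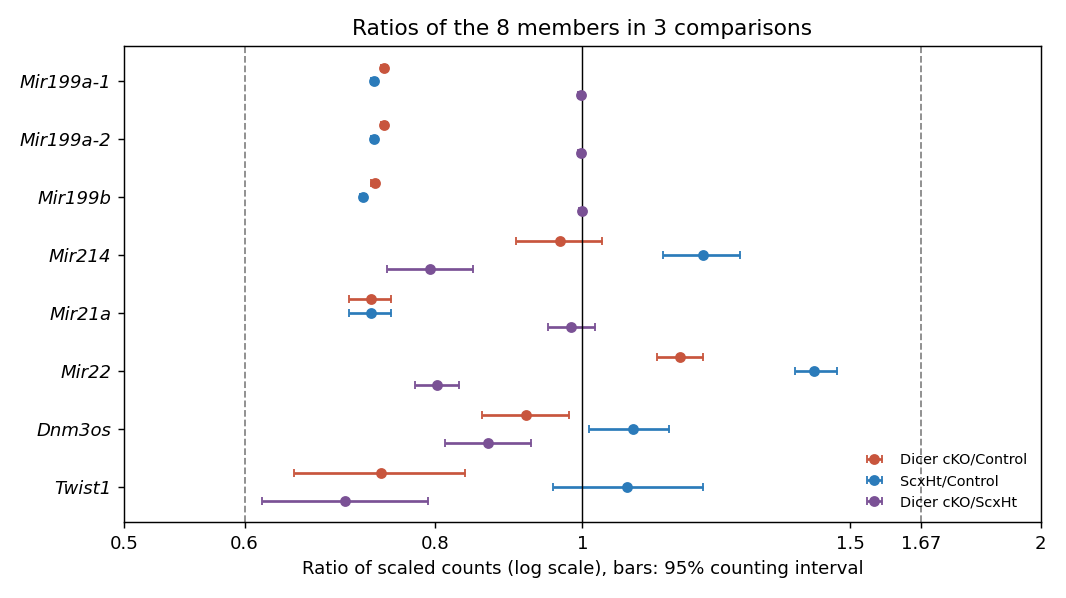
Ratio of scaled counts (log axis) of the 8 members in the 3 comparisons, with 95% counting intervals as bars and the ratio 0.60 and its reciprocal as dashed lines. The comparisons share libraries. All 24 points lie between the dashed lines, and the miR-199 loci and Mir21a are near 1 for Dicer cKO/ScxHt.

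Twist1 was lower in the Dicer cKO library than in the other libraries. It had RNA-seq counts of 578 (Control), 647 (ScxHt) and 410 (Dicer cKO), or 21.9, 25.2 and 16.8 RPKM. The Dicer cKO library was at 0.737 (0.647 to 0.837) of the Control and at 0.698 (0.616 to 0.792) of ScxHt. The ratio ScxHt/Control was 1.07 (0.957 to 1.20), within counting error of 1. Neither Twist1 nor Dnm3os passed a threshold in any comparison. When total counts replaced size factors, the share of higher among the called genes went from 48.1% to 60.4% (Dicer cKO/Control) and from 39.2% to 58.4% (ScxHt/Control). Of all genes, 12.3% had a lower Dicer cKO/Control ratio than Twist1 and 39.0% a lower one than Dnm3os. Tendon fibroblast markers were also lower in the Dicer cKO library, and their list had a median ratio of 0.542 for Dicer cKO/Control and 1.14 for ScxHt/Control. Their part in the values of Twist1 was not tested.

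The genes that act with Twist1 were described from a list of its E protein partners, its Id inhibitors and related factors, Twist1 included. Of 10 members above the minimum mean count of 50, for Dicer cKO/Control 3 were lower and 0 higher, and for ScxHt/Control 1 was lower and 2 were higher. The median log2 ratio was -0.34 and 0.09, beside -0.03 and 0.02 for all genes. For Dicer cKO/ScxHt, 4 of 9 members above the minimum were lower and 0 higher, with a median of -0.52. Of all genes, 5.68% were lower and 7.68% higher there, with a median of -0.03. The Id proteins bind E proteins and keep them from DNA. Id2 had counts of 505 (Control), 682 (ScxHt) and 283 (Dicer cKO), and Dicer cKO/Control was 0.582 (0.501 to 0.674). Id1 had 524, 974 and 332 counts, and ScxHt was at 1.78 (1.60 to 1.98) and Dicer cKO at 0.658 (0.572 to 0.756) of the Control. Id3, at 314, 594 and 280 counts, had a ScxHt/Control ratio of 1.81 (1.58 to 2.08). These 3, named because each passed a threshold against the Control, were highest in the ScxHt library and lowest in the Dicer cKO library. Their Dicer cKO/ScxHt ratios were 0.376 (Id1), 0.457 (Id2) and 0.519 (Id3). Each was named for a high ScxHt or a low Dicer cKO value, so low ratios were favoured in advance. These ratios are therefore not set against all genes. Id4, also in the list, did not share the order of Id1, Id2 and Id3, with counts of 122 (Control), 94 (ScxHt) and 100 (Dicer cKO). Its Dicer cKO/ScxHt ratio was 1.17 (0.876 to 1.57). Hand2, a related basic helix-loop-helix factor that can pair with E proteins, was at 0.493 (0.362 to 0.666) for Dicer cKO/Control. Twist2, the paralog of Twist1, was named after its values were seen and had counts of 111 (Control), 69 (ScxHt) and 30 (Dicer cKO). Against the Control, it was at 0.595 (0.434 to 0.811) with ScxHt. For Dicer cKO/Control it was 1 of the 3 lower genes, but it passed the minimum only through the Control library. It thus had to be lower there, and nothing is read from that ratio.

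Among 16 other transcription factors of mesenchyme, 9 were above the minimum in both comparisons with the Control. Of these 9, 2 were higher with ScxHt and 0 lower, and 0 passed a threshold with Dicer cKO, with median log2 ratios of 0.11 and -0.10. Snai2, a repressor of epithelial genes, had counts of 291 (Control), 672 (ScxHt) and 309 (Dicer cKO). Its ScxHt/Control ratio was 2.21 (1.92 to 2.55), and that of the homeobox gene Prrx2 was 1.75 (1.31 to 2.35). Snai1, with 29 (Control), 123 (ScxHt) and 36 (Dicer cKO) counts, and Osr1, with 36, 71 and 35, passed the minimum only through the ScxHt library. They thus had to differ, and nothing is read from their ratios. For Dicer cKO/ScxHt, 4 of 11 were lower and 0 higher, with a median log2 ratio of -0.50. Of all genes, 5.68% were lower and 7.68% higher there. Snai1 and Osr1 are among the 4, so nothing is read from that count. In the same ScxHt library, 9 of 10 macrophage markers were higher, with summed RPKM of 102 (Control), 193 (ScxHt) and 79.8 (Dicer cKO). Their part in the result was not tested.

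Of 14 genes typical of mesenchymal cells, 1 was higher and 1 lower for Dicer cKO/Control, and 1 was higher for ScxHt/Control. Their median log2 ratios were -0.28 and 0.15, beside -0.03 and 0.02 for all genes. For Dicer cKO/ScxHt, 5 of the 14 were lower and 1 higher, with a median of -0.55. Of all genes, 5.68% were lower and 7.68% higher there, with a median of -0.03. Fn1, which encodes fibronectin, had counts of 52621 (Control), 77906 (ScxHt) and 25605 (Dicer cKO), and its Dicer cKO/Control ratio was 0.505 (0.498 to 0.513). Postn, which encodes the matrix protein periostin, was at 1.99 (1.93 to 2.05) for ScxHt/Control. Tagln, a smooth muscle and myofibroblast gene, was just above the upper threshold for Dicer cKO/Control, with an interval of 1.48 to 1.89. Of the 6 host and overlapping genes, which include Dnm3os, 0 passed a threshold in any comparison. Vmp1, which overlaps Mir21a, was at 1.19 (1.07 to 1.33) of the Control with ScxHt and at 0.944 (0.841 to 1.06) with Dicer cKO, where Mir21a was at 0.726 with each. The dynamin genes antisense to the miR-199 loci had Dicer cKO/Control ratios of 0.837 (Dnm1), 0.791 (Dnm2) and 0.985 (Dnm3). The strand setting of the counting is not given in the sources used here, so reads of Dnm3 and Dnm3os may not be fully separate.

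Known mRNA targets of these miRNAs, in 4 lists, were followed in RNA-seq. Of 18 miR-199a targets, 0 passed a threshold for Dicer cKO/Control or ScxHt/Control, with median log2 ratios of -0.12 and 0.04. Of 15 miR-214 targets above the minimum, Twist1 among them, 0 passed either threshold, with medians of -0.10 and -0.05. Of 18 miR-21 targets, for Dicer cKO/Control 2 passed the upper and 2 the lower threshold, and for ScxHt/Control 2 were lower, with medians of -0.29 and -0.04. Of 16 miR-22 targets, 2 were higher for Dicer cKO/Control and 1 for ScxHt/Control, with medians of -0.06 and -0.11. The medians for all genes were -0.03 and 0.02. For Dicer cKO/ScxHt, 1 miR-199a target was higher and 1 lower, and 0 miR-214 targets passed a threshold. Of the miR-21 targets 3 were higher and 1 lower, and of the miR-22 targets 3 were higher and 0 lower. Of all genes, 7.68% were higher and 5.68% lower there. Some genes, among them Jag1, Ppara and Sirt1, stand in more than 1 of these lists.

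The miR-21 targets that passed a threshold moved in both directions. Tpm1, which encodes tropomyosin, had counts of 16054 (Control), 17078 (ScxHt) and 30075 (Dicer cKO), and Dicer cKO/Control was 1.95 (1.91 to 1.98). Rhob, a small GTPase gene, was at 0.437 (0.40 to 0.477), and the antiproliferative gene Btg2 at 0.401 (0.357 to 0.450), in the same comparison. Btg2 was also at 0.326 (0.288 to 0.367) and Spry1, an inhibitor of receptor tyrosine kinase signalling, at 0.458 (0.385 to 0.544) for ScxHt/Control. Ppara, a nuclear receptor of fatty acid oxidation that is in the miR-21 and the miR-22 list, had counts of 76 (Control), 49 (ScxHt) and 167 (Dicer cKO), and Dicer cKO/Control was 2.28 (1.73 to 3.03). Ppargc1a, a coactivator of mitochondrial genes in the miR-22 list, had 540, 347 and 1160 counts and a ratio of 2.23 (2.01 to 2.48). Tpm1, Ppara and Ppargc1a are expressed in skeletal muscle, and the muscle markers given above were highest in the same library. Ptafr, the receptor of platelet-activating factor, was the miR-22 target above the threshold for ScxHt/Control, at 2.26 (1.71 to 3.02), beside the higher macrophage markers of that library. The part of muscle and macrophage RNA in these values was not tested.

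**Figure D5:**
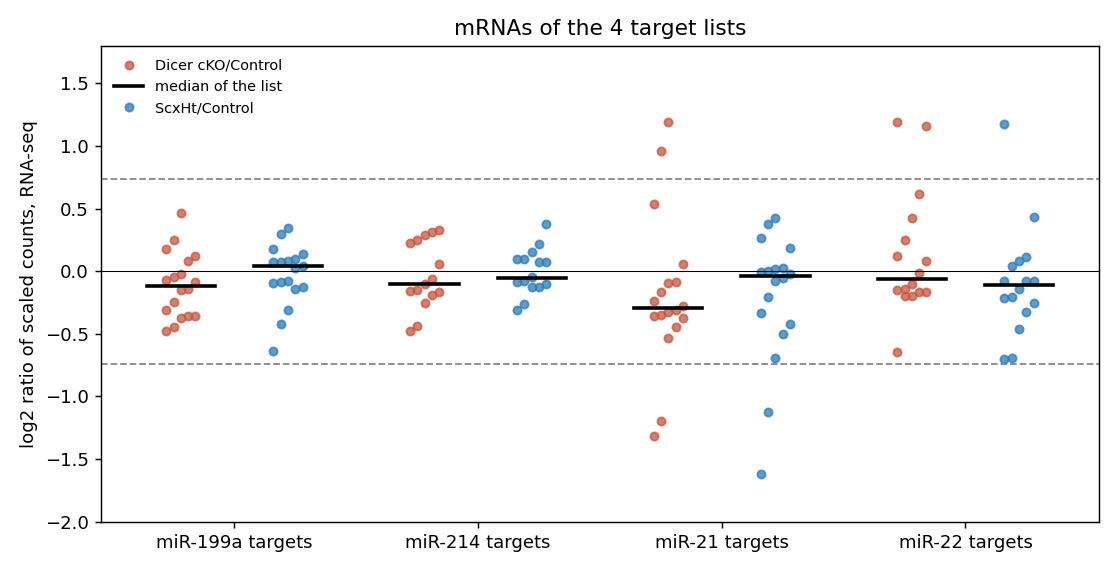
log2 ratio of scaled RNA-seq counts for each measured mRNA of the 4 target lists, for Dicer cKO/Control (red) and ScxHt/Control (blue), with the list medians as black bars and the ratio 0.60 and its reciprocal as dashed lines. The miR-199a and miR-214 targets all lie between the dashed lines, and the miR-21 targets have the lowest median, -0.29, for Dicer cKO/Control.

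Sites for the seeds were then looked for in the longest GENCODE vM21 3' UTR of each gene, as an 8mer, the bases that pair with the seed followed by A. Of the miR-21 targets, 10 of 18 held such an 8mer for miR-21a-5p, among them Pdcd4, Spry1, Reck, Timp3 and Smad7. Of the miR-199a targets, 4 of 18 held an 8mer for miR-199a-5p and 0 of 18 one for miR-199a-3p. The 8mer of miR-214-3p was in 3 of 16 and that of miR-22-3p in 3 of 16 of their targets. Of all genes with a 3' UTR compared for Dicer cKO/Control, 2.63% (miR-21a-5p), 5.55% (miR-199a-5p), 2.87% (miR-199a-3p), 6.04% (miR-214-3p) and 2.49% (miR-22-3p) held these 8mers. The bases that pair with the seed, without the A, were in 3, 7, 3, 9 and 11 further targets in the same order. For miR-199a-5p, miR-214-3p and miR-21a-5p, 1 site each, in the gene of the list with an 8mer and the highest mean count, is given with the bases before it on the strand of the gene, GRCm38, with the 8mer in capitals.
Fzd4, a Wnt receptor gene, site for miR-199a-5p at chr7:89408764-89408785, plus strand: aaagtgatctataaACACTGGA
Qk, an RNA-binding protein gene, site for miR-214-3p at chr17:10209552-10209573, minus strand: cctgaccatgcctgCCTGCTGA
Timp3, a metalloproteinase inhibitor gene, site for miR-21a-5p at chr10:86348213-86348234, plus strand: tttttgagctttcaATAAGCTA
The Dicer cKO/Control ratio of these mRNAs was 0.843 (0.804 to 0.884) for Fzd4, 1.24 (1.21 to 1.28) for Qk and 0.693 (0.679 to 0.707) for Timp3. The ScxHt/Control ratio was 0.936, 0.832 and 1.01 in the same order. None of the 3 mRNAs passed a threshold, and only Qk was above 1 for Dicer cKO/Control by more than counting error.

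Over all genes, those with an 8mer had median Dicer cKO/Control ratios within 0.03 of that of all genes with a 3' UTR on the log2 scale. Of the genes above the minimum mean count, 81.9% had an annotated 3' UTR. The 10983 genes with one had a median log2 ratio of -0.04, with 3.80% higher and 3.76% lower. The 610 genes with an 8mer for miR-199a-5p had a median of -0.05, with 3.93% higher and 3.28% lower. The 289 genes with one for miR-21a-5p had a median of -0.04, with 2.77% higher and 4.15% lower, and the 663 genes with one for miR-214-3p a median of -0.07, with 3.02% higher and 3.32% lower. For miR-199a-3p and miR-22-3p, the medians over 315 and 274 genes were -0.05 and -0.07, with 2.22% and 1.82% higher and 4.76% and 3.28% lower. For ScxHt/Control the 5 medians were between -0.02 and 0.01, beside 0.02 for all genes with a 3' UTR. For Dicer cKO/ScxHt, 7.48% of all genes with a 3' UTR were higher and 5.96% lower, with a median of -0.04. The miR-21a-5p set had the largest share of higher genes of the 5 sets. In it, 29 of the 290 genes were higher and 14, or 4.83%, lower, but its median was -0.03. In the other sets, the shares of higher genes were 7.75% (miR-199a-5p), 6.60% (miR-199a-3p), 6.82% (miR-214-3p) and 6.88% (miR-22-3p). The shares of lower genes there were 4.04%, 3.46%, 4.55% and 5.43% in the same order. Genes with an 8mer had longer 3' UTRs, with median lengths of 2521 to 3110.0 bases against 1313 for all genes.

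Over the 2 comparisons with the Control, the small RNA most like Mir214 was Mir27a, with counts of 4798 (Control), 5122 (ScxHt) and 4052 (Dicer cKO) and a distance of 0.006 between their log2 ratios. Likeness was the Euclidean distance over these 2 ratios among 120 abundant miRNA loci, which rests on 3 libraries only. Mir196a-2, with 31327, 19946 and 19724 counts, was the locus outside the set nearest to Mir21a, at a distance of 0.019, and was also near Mir199b, at 0.018. The loci nearest to Mir22 were Mirlet7d, Mir24-1 and Mir24-2, at larger distances of 0.129 to 0.176. Among 4951 abundant genes, Tsc22d3, Rbm7 and Gas6 were nearest to Twist1 and Cd2ap, Dynll1 and RP23-111H19.2 to Dnm3os, at distances of at most 0.016.

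Twist1 and other basic helix-loop-helix factors bind E-boxes, which have the letters CANNTG, and CATCTG is among the forms that Twist1 dimers bind. In the RefSeq promoter of Dnm3os, from 250 bases before to 50 bases after the start (chr1:162217373-162217672, plus strand), CANNTG occurred 3 times and CATCTG, searched on both strands and itself a form of CANNTG, occurred 1 time. The promoter of Twist1 held 0 of either. Of all 32851 promoters of this length, 72.3% held CANNTG and 17.2% CATCTG. The match in the Dnm3os promoter is shown with the letters in capitals, because Dnm3os is the known link between Twist1 and the Mir199a-2 and Mir214 hairpins.
Dnm3os promoter, chr1:162217473-162217502, plus strand: attacacgaaaaCATCTGgtaccattttat
Such a match describes the letters and not a bound site.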

How the data were processed

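RNA-seq and small RNA-seq of Achilles tendon RNA were analysed from the deposited tables. The authors removed adaptors, mapped the reads to GRCm38/mm10 with Tophat and bowtie2 and assigned them with HTSeq. They deposited each raw count and an RPKM per library. The versions of these tools, the annotation release and the strand setting are not given in the sources used here. The counts were used for all ratios and RPKM only for levels. Lines repeated in name and counts (463 in RNA-seq, 3 in small RNA-seq) were dropped. DESeq2 1.42.0 in R 4.3.3 gave size factors for the 2 libraries of each comparison. Exact Clopper-Pearson 95% intervals, with Python 3.11.15, numpy 2.4.6, pandas 2.3.3 and scipy 1.17.1, cover counting error only. Features needed a mean scaled count above 50 (RNA-seq) or 15 (small RNA-seq), and ratios below 0.60 or above its reciprocal (rounded to 2 decimals) were called. The ratios and intervals were tested on simulated data. Alternatives used edgeR 4.0.16 TMM factors, total counts, other feature sets and other thresholds. Figures used matplotlib 3.10.9. The members and the 18 gene lists, taken from textbook knowledge, were chosen with earlier results of these data known. Besides members, host genes, related loci and marker lists, the genes named were at most 4 per list past a threshold against the Control, with the highest mean count, the 3 features nearest each member, and examples of target sites. Twist2, Id4 and the genes given as examples of several target lists or of 8mers were named after their values were seen.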

Additional observations from a re-analysis of the deposited data

Results flagged for a closer look

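The RNA-seq table also has rows for the miRNA hairpins, which no comparison above used. Reads above the floor of 3 counts stood there for Mir22, with 53 (Control), 33 (ScxHt) and 56 (Dicer cKO). Mir199a-2 had 8, 9 and 6 reads in the same order, Mir214 had 6 in the Dicer cKO library and Mir21a had 4 in the Control library. All 6 loci but Mir199a-1 and Mir199b were above the floor in at least 1 library, and the 4 that were above it lie within exons of longer transcripts. Mir199a-1 was at the floor with 3, 2 and 2 reads, and Mir21a had 1 read in each of the ScxHt and Dicer cKO libraries. At such counts, no link between reads and exon position is read from this split.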

How the results depend on the processing

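The number of miRNA loci past a threshold was 0 in all 3 comparisons with every scaling tried. The other thresholds tried were stricter, and all 6 loci were far above each minimum tried, so these settings could only give 0 again. The median log2 ratio of the 6 loci for Dicer cKO/Control was -0.43 and became -0.38 with TMM factors, -0.25 with total counts, -0.40 with size factors over the 3 libraries, -0.31 with totals without features above 1%, and -0.39 both with size factors from miRNA loci and with 1 of each set of identical features. For ScxHt/Control it was -0.45 and became -0.25 with total counts, -0.42 with size factors over the 3 libraries, -0.36 with totals without features above 1%, -0.43 with size factors from miRNA loci and -0.41 with 1 of each set of identical features. Without the miR-199 loci, the median over Mir214, Mir21a and Mir22 was -0.05 and 0.26 for Dicer cKO and ScxHt against the Control, and -0.32 for Dicer cKO/ScxHt. For Dicer cKO/ScxHt the median became 0.01 with size factors over the 3 libraries and 0.03 with totals without features above 1%. Total counts moved all small RNA ratios by 0.18 for Dicer cKO/Control and 0.21 for ScxHt/Control on the log2 scale, and RNA-seq ratios by 0.11 for ScxHt/Control, where the Dnm3os ratio became 1.16. Total counts also turned the split of small RNA features called for ScxHt/Control from 10 higher and 23 lower to 25 and 11, and for Dicer cKO/Control from 28 and 14 to 46 and 9. In RNA-seq, 408 genes were higher for ScxHt/Control and 640 with total counts. Totals without features above 1% gave 14 small RNA features lower for ScxHt/Control in place of 23. No replicate could be left out, since each genotype had 1 library. No paired analysis was possible because the labels give 1 library per genotype and assay and the comparisons come from no test.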
